A study of Mus musculus with 2 samples.

Results

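The proteasome subunit genes of the mouse were described here in chromatin of the thymus. They were taken as the protein-coding genes of GENCODE M21 whose symbol is Psma, Psmb, Psmc, Psmd, Psme or Psmg followed by a number, with 1 such symbol left out by the rule, which gave 46 of 21938 protein-coding genes. The symbols alone chose the members and no measured value entered the rule, which was set with earlier results of these data known. The data were 2 DNase-seq libraries, biological replicates 1 and 2, from whole thymus of female B6CASTF1/J mice, an F1 cross of C57BL/6J with CAST/EiJ, at an age of 10 days. No agent, allele or control group was named, and the labels numbered the females separately while giving both the same donor identifier. DNase-seq cuts open chromatin in nuclei with DNase I. A peak is a stretch cut often, its deposited height is a scaled cut rate, and a footprint is a short stretch inside open chromatin that was cut less than its surroundings.

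The proteasome is the protease that degrades most ubiquitin-tagged proteins of a cell. Its barrel-shaped core has outer rings of alpha subunits, encoded by Psma genes, and inner rings of beta subunits, encoded by Psmb genes, of which Psmb5, Psmb6 and Psmb7 carry the constitutive active sites. Cells of the immune system, and other cells after interferon, build in Psmb8, Psmb9 and Psmb10 in their place, which gives an immunoproteasome known for making peptides for MHC class I. The regulatory particle, with ATPases (Psmc) and non-ATPase subunits (Psmd), binds and unfolds the substrate, Psme genes encode other activators, and Psmg genes and some Psmd genes encode assembly chaperones. When proteasomes are inhibited, the factor Nfe2l1 is known to raise transcription of subunit genes through antioxidant response elements. In the thymus, peptides made by proteasomes and shown on MHC class I take part in the selection of T cells.

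The sequences below carry the contrast between constitutive and immune subunits, and Psmb3 is shown as the member with the highest promoter peak. Each is on GRCm38.p6, read 5′ to 3′ in the direction of the gene, from up to 250 bases before a RefSeq start and outside annotated exons (for Psmb8, from the peak at its first start). Psmb9 is limited to a site of 30 bases because its promoter lies in an exon of a longer transcript. Capitals mark bases that lay in deposited footprints of both replicates. Psmb5 at chr14:54618023-54618245 on the minus strand, Psmb6 at chr11:70525107-70525356 on the plus strand, Psmb8 at chr17:34197561-34197720 on the plus strand, Psmb9 at chr17:34187368-34187397 on the minus strand, Psmb10 at chr8:105938445-105938642 on the minus strand and Psmb3 at chr11:97703184-97703398 on the plus strand read as follows.
Psmb5: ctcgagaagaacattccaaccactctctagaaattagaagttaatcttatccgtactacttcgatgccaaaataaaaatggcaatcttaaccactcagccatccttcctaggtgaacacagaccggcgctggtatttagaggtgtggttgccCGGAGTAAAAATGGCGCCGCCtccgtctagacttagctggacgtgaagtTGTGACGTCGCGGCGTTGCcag
Psmb6: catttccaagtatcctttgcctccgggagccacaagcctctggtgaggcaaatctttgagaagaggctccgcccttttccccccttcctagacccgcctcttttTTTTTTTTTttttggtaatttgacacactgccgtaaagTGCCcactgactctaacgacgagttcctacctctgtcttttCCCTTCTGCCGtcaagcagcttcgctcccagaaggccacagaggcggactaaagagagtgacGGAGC
Psmb8: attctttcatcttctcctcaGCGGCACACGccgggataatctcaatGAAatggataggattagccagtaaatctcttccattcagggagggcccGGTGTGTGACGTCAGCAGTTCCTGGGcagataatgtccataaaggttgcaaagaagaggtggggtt
Psmb9: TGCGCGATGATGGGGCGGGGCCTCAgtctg
Psmb10: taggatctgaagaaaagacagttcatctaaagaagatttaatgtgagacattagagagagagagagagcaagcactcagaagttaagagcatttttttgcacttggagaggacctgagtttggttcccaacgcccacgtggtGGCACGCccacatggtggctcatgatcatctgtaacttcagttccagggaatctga
Psmb3: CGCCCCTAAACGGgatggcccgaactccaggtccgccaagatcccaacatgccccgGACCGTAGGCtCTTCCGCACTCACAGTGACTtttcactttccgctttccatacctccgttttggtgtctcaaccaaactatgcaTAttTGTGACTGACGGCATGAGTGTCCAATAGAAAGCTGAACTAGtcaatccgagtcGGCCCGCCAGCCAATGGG
Footprints of both replicates covered 104 of the 215 bases shown for Psmb3, 40 of 223 for Psmb5, 29 of 250 for Psmb6, 39 of 160 for Psmb8 and 7 of 198 for Psmb10. These stretches are not alike. That of Psmb8 was taken from inside a peak, while that of Psmb10 lies outside its highest promoter peak in both replicates. The Psmb5 stretch holds TGACGTCGC, a match to the antioxidant response type of element, inside a footprint of both replicates. The Psmb8 stretch holds TGACGTCA, a CREB and ATF type of element, also inside a footprint of both replicates. The Psmb9 site holds GGGCGG, a GC box, inside a footprint of both replicates.

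The libraries differed in size. Replicate 1 had 132737 peaks and 375374 footprints, and replicate 2 had 69798 peaks and 210014 footprints, and no read number is known for either. A gene was given the height of the highest peak within 500 bp of any of its annotated starts. The median height over genes with such a promoter peak was 4.30 in replicate 1 and 4.07 in replicate 2. All 10 thymocyte marker genes, such as Cd3e, Rag1 and Lck, had promoter peaks in both replicates, against 4 of 8 for thymic epithelium, 3 of 8 for macrophages and dendritic cells, 1 of 4 for B cells and 0 of 6 for hepatocytes. Of all protein-coding genes, 57.2% had a promoter peak in both replicates. Thymocyte markers had heights of 2.37 to 7.63 in replicate 1 and 1.51 to 8.04 in replicate 2. The 3 macrophage and dendritic cell markers with a peak had heights of 0.637 to 1.47 in replicate 1 and 0.348 to 0.695 in replicate 2. The 4 epithelial markers with a peak ran from 0.753 to 7.79 and from 0.973 to 7.15, with Ccl25 the highest. Pax5, the B cell marker with a peak, had 3.09 and 3.12. The tissue was measured in bulk, so that a lower height may come from fewer cells with an open site or from less cutting per cell, which cannot be told apart.

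The promoters of the proteasome genes were open almost without exception. All 46 had a promoter peak in replicate 1 and 45 in replicate 2, where 63.4% and 57.8% of all protein-coding genes had one, and the 45 with peaks in both compare with 57.2% of all genes. In the smaller, stricter peak file 45 members had a promoter peak in either replicate, against 59.6% and 53.8% of all genes. A promoter footprint was present at 45 members in replicate 1 and at 45 in replicate 2, against 60.7% and 56.5%, and at 45 in both, against 55.9%. The share of the members lay well above the background in each of these counts. Members also had more annotated starts, with a median of 5 against 3 for all genes. Their joined windows were longer, with a median of 2.52 kb against 2.00 kb. Whether this adds to the gap was not tested.

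Psma8, the alpha subunit of germ cells that replaces Psma7 in the testis, was the exception. Its only promoter peak had a height of 0.203 in replicate 1, at percentile 2.74 of genes with a promoter peak, and it had no peak in replicate 2 and no footprint in either. Psma8 was also without a peak in the stricter file. Of 4 germ cell markers, 1 had a promoter peak in replicate 1 and 2 in replicate 2, against 63.4% and 57.8% of all genes. Sycp1 and Sycp3, which encode components of the synaptonemal complex of meiosis, had none. Dazl had 2.61 in replicate 1 and 2.87 in replicate 2, at percentiles 34.4 and 38.0, with footprints in both. Ddx4 had a peak of 0.377 in replicate 2 alone and no footprint.

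Where open, these promoters were somewhat higher than those of most genes. The median over members was 5.80 in replicate 1 and 4.83 in replicate 2, which is 1.35 and 1.19 times the median of all genes with a promoter peak (1.27 ± 0.115, SD, n = 2). Genes with a promoter peak in both replicates stood at 1.14 and 1.02 times that median. The members ranged widely about it, from 0.203 to 16.9 in replicate 1 and, among those with a peak, from 1.19 to 13.9 in replicate 2. The order of the members was similar in the replicates, with Pearson's r = 0.909 for log2 heights and Spearman's rho = 0.885 over 45 members, as a description across genes that share 2 libraries. Over all 12547 genes with peaks in both, these were 0.953 and 0.955. Of the 45 members, 9 (20%) were higher in replicate 2, against 35.0% of those genes. The ratio of replicate 2 to replicate 1 ran from 0.461 at Psmd1, a scaffold subunit of the regulatory particle, to 1.28 at Psmc2, one of the ATPases, both named after their values were seen.

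**Figure D1:**
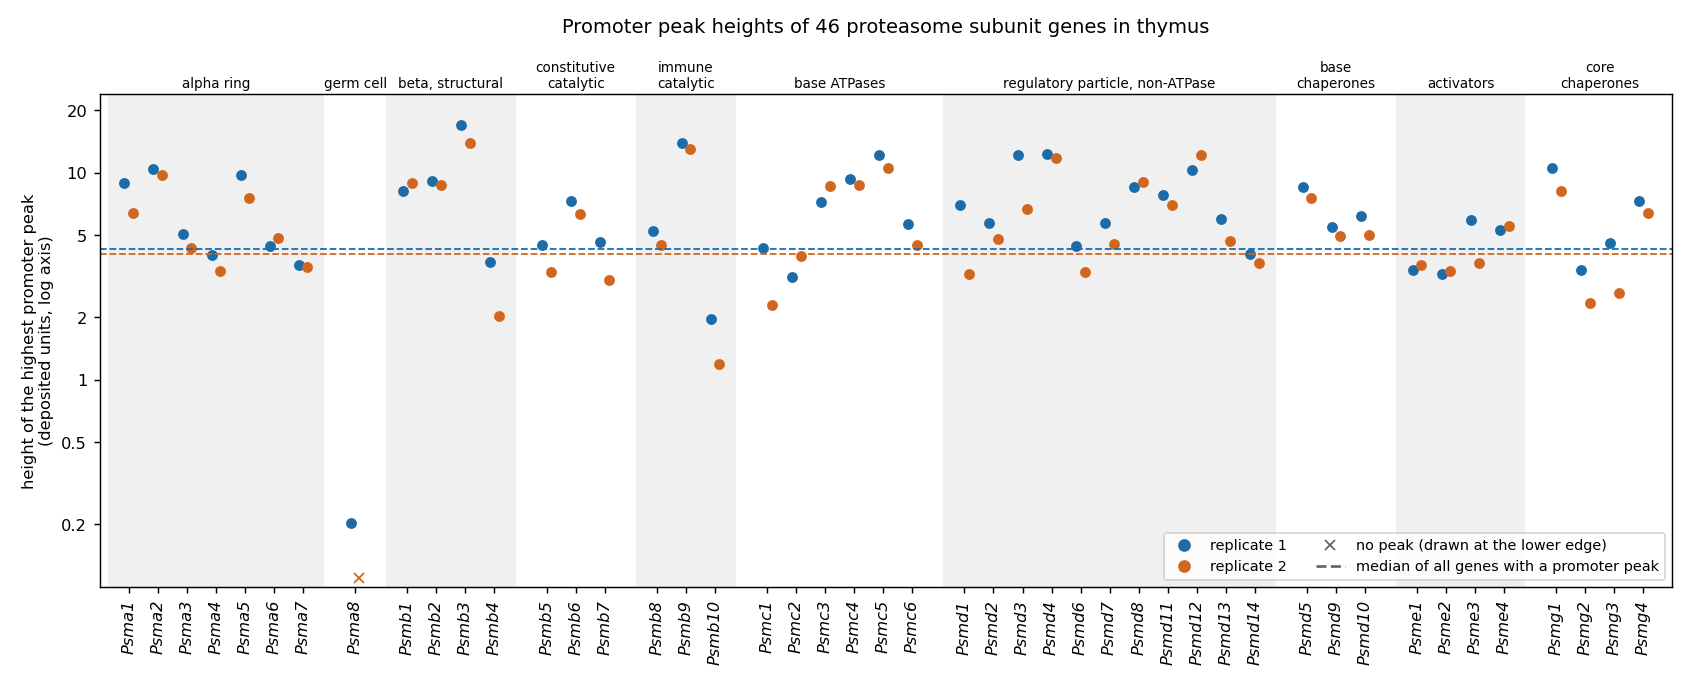
Height of the highest promoter peak (log axis, deposited units) for each of the 46 members, ordered by role, with replicate 1 in blue and replicate 2 in orange; dashed lines are the medians of all genes with a promoter peak, 4.30 and 4.07. Psmb3 and Psmb9 stand highest, Psmb10 is the lowest member with a peak in both replicates, and Psma8 has a low peak in replicate 1 alone.

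The outer ring of the core was open throughout. The 7 genes Psma1 to Psma7 had a median height of 5.04 in replicate 1 and 4.83 in replicate 2. Psma2 was the highest of them, at 10.4 in replicate 1 and 9.78 in replicate 2 (10.1 ± 0.464, SD, n = 2). Its peak lay between its own start and that of Mrpl32, a mitochondrial ribosomal protein gene on the other strand, whose nearest diverging starts are 75 bp apart, so that the height cannot be given to either gene alone. Psma7 had the lowest mean, at 3.57 and 3.52 (3.54 ± 0.0399, SD, n = 2), although Psma4 was lower in replicate 2 with 3.35. The peak of Psma7 was shared with Ss18l1, whose nearest diverging start lies 76 bp away. The gap between Psma2 and Psma7 was larger than the spread between replicates of either.

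The structural beta subunits, which have no active site, held both a very high and a low promoter. Psmb3 reached 16.9 in replicate 1 and 13.9 in replicate 2 (15.4 ± 2.16, SD, n = 2), at percentiles 99.1 and 94.7 of genes with a promoter peak. Psmb4 had 3.70 and 2.03 (2.87 ± 1.18, SD, n = 2). No value of Psmb4 came near those of Psmb3, although both encode subunits present in equal number in each core. The 4 structural genes had medians of 8.64 and 8.81, the highest of the roles with a peak in both replicates.

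The constitutive catalytic subunits had promoters near the middle of the genome's range. Psmb6, which carries the caspase-like site, was the highest of them with 7.30 in replicate 1 and 6.29 in replicate 2 (6.80 ± 0.715, SD, n = 2). Psmb5, which carries the chymotrypsin-like site, had 4.45 and 3.31 (3.88 ± 0.810, SD, n = 2). Psmb7, which carries the trypsin-like site, had 4.64 and 3.04 (3.84 ± 1.13, SD, n = 2). Psmb5 and Psmb7 did not differ beyond their spread, while both replicates of Psmb6 lay above all values of the other two. Each of the 3 genes had its highest peak over or beside its first start in both replicates.

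The immune catalytic subunits were open in both replicates but spread over almost the whole range of the members. Psmb9 had 14.0 in replicate 1 and 12.96 in replicate 2 (13.5 ± 0.709, SD, n = 2), at percentiles 97.1 and 93.1. Psmb8 had 5.24 and 4.50 (4.87 ± 0.519, SD, n = 2). Psmb10 had 1.96 and 1.19 (1.58 ± 0.544, SD, n = 2), at percentiles 28.6 and 18.4, the lowest of all members with a peak in both replicates. Its values come from different peaks in the replicates, so this SD is not the spread at a single site. The values of the 3 genes did not overlap one another.

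These 3 genes also differed in how their open chromatin lay. The single high peak of Psmb9 (chr17:34187341-34187560 in replicate 1, chr17:34187301-34187520 in replicate 2) lay at a group of its own starts and beside a start of Tap1, which encodes a chain of the peptide transporter of MHC class I and is transcribed the other way. This peak gave both genes their height. Psmb8 had a peak at its first start (chr17:34197561-34197800 in both replicates) and another at a later start of the gene, of height 4.05 in replicate 1 and 2.13 in replicate 2. A higher peak lay further upstream, outside the window of 500 bp, and was not counted as a promoter peak of Psmb8. From the most upstream coding start it ran from -1429 to -990 bp in replicate 1, with height 6.22. In replicate 2 it ran from -1209 to -1010 bp, with height 5.55. Psmb10 had 4 promoter peaks in either replicate, all low. Its highest peak was chr8:105938001-105938280 in replicate 1 and chr8:105936901-105937260 in replicate 2, which do not overlap, and the peak at its first coding start had 1.40 and 0.568.

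**Figure D2:**
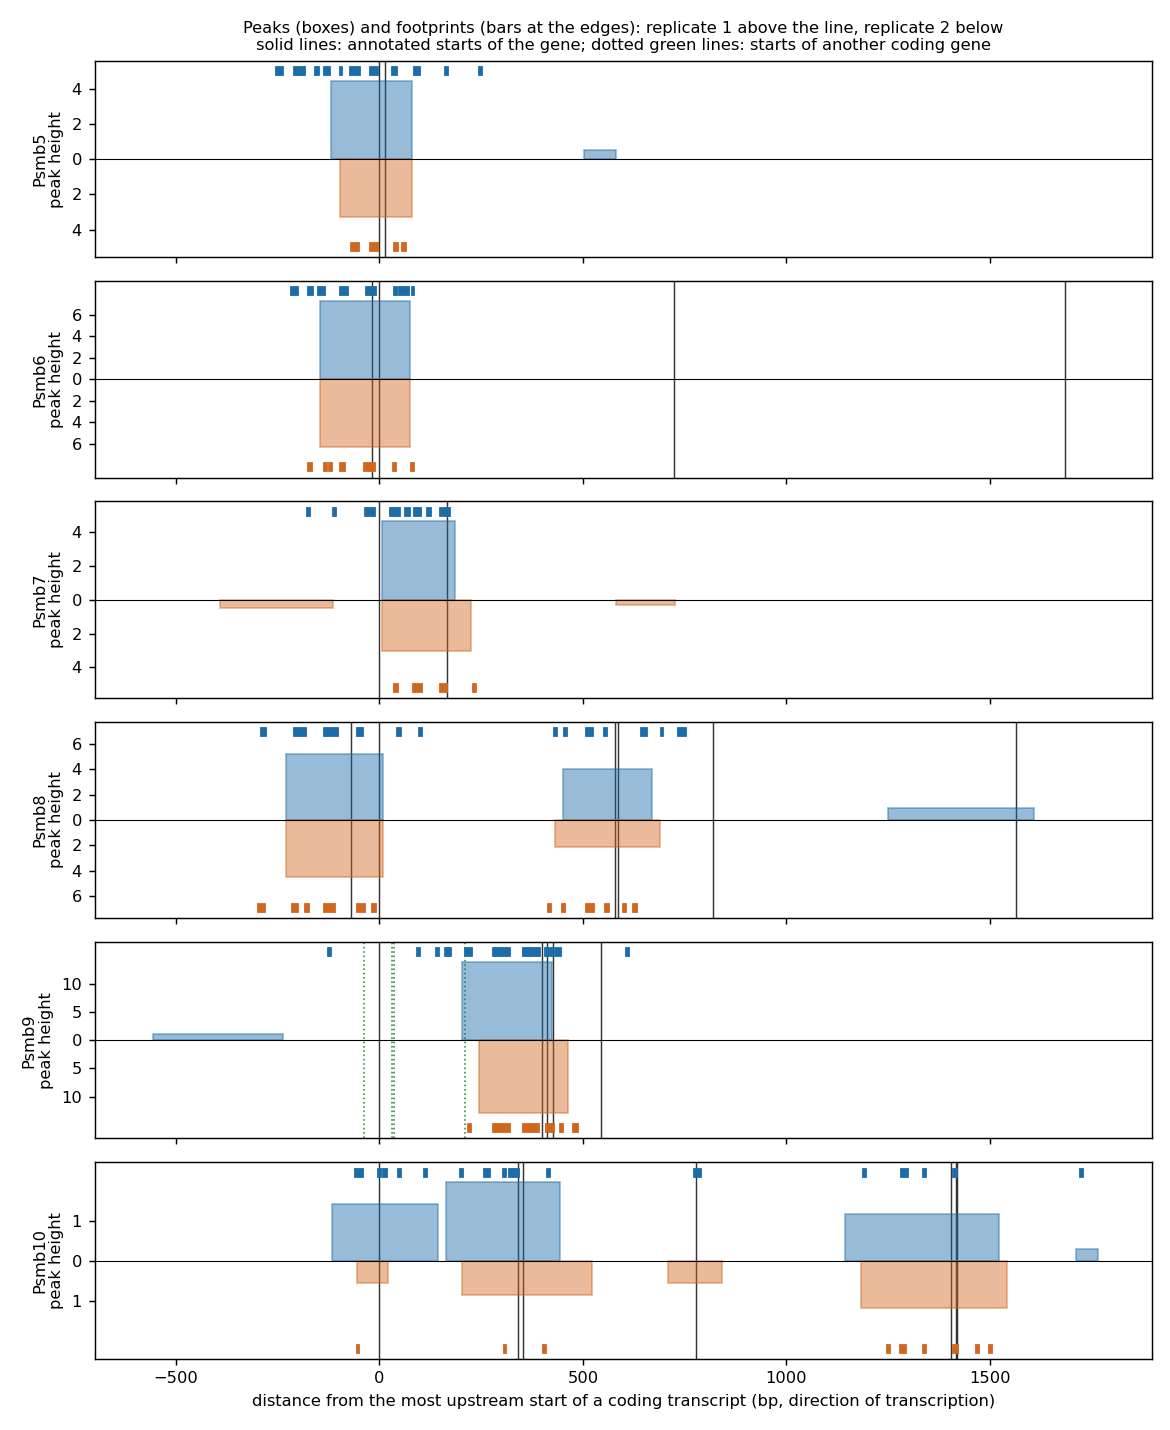
Peaks (boxes, height in deposited units, a scale for each gene) and footprints (small bars) against distance in bp from the most upstream coding start, replicate 1 above and replicate 2 below the line; solid lines are starts of the gene and dotted lines starts of another coding gene (Tap1 beside Psmb9). Psmb5, Psmb6 and Psmb7 have their high peak at the first starts, Psmb8 has peaks at an early and a late start, and Psmb10 has 4 low peaks in either replicate. A higher peak further upstream of Psmb8 lies outside the range drawn.

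Set against each other, the catalytic groups were not separated. The mean height of the constitutive genes was 5.46 in replicate 1 and 4.21 in replicate 2, and that of the immune genes was 7.05 and 6.22. The log2 ratio of constitutive over immune was -0.37 in replicate 1 and -0.56 in replicate 2 (-0.47 ± 0.137, SD, n = 2). This ratio is past the spread between replicates, yet the constitutive genes all lay inside the range of the immune ones, and Psmb9 alone was higher than every constitutive gene. With peaks near starts of other genes left out, Psmb9 has no peak and enters as 0, and the log2 ratio becomes 1.17. With the groups widened to all 14 standard core subunits against the immune subunits with Psme1 and Psme2, it is 0.31. The direction thus depended on how that peak was counted and on which genes were grouped.

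Footprints gave no stable difference between the 3 constitutive and the 3 immune genes either. Psmb5 had 13 promoter footprints in replicate 1 and 4 in replicate 2, Psmb6 had 9 and 7, and Psmb7 had 8 and 4. Psmb8 had 14 and 13, Psmb9 had 10 and 6, and Psmb10 had 18 and 9. The immune genes have longer joined windows, 2.59 kb on average against 1.63 kb. Per kb of window, the constitutive genes had 7.66 in replicate 1 and 3.32 in replicate 2, and the immune genes 5.47 and 3.62. The difference was 2.19 and -0.30 (0.944 ± 1.76, SD, n = 2), with opposite signs in the replicates. For the wider groups, the difference was 1.71 in replicate 1 and 1.54 in replicate 2 (1.62 ± 0.120, SD, n = 2), with more footprints per kb at the standard core subunits in both. Their windows were shorter, 2.12 kb on average against 2.91 kb. Mean counts per gene were close, 10.5 against 10.6 in replicate 1 and 8.5 against 7.8 in replicate 2. At Psmb9 the widest footprint spanned 41 bp in either replicate, but at different sites. In replicate 1 it was the footprint over the GC box shown above, chr17:34187371-34187411. In replicate 2 it was chr17:34187444-34187484, and the footprint over the GC box was chr17:34187373-34187412.

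**Figure D3:**
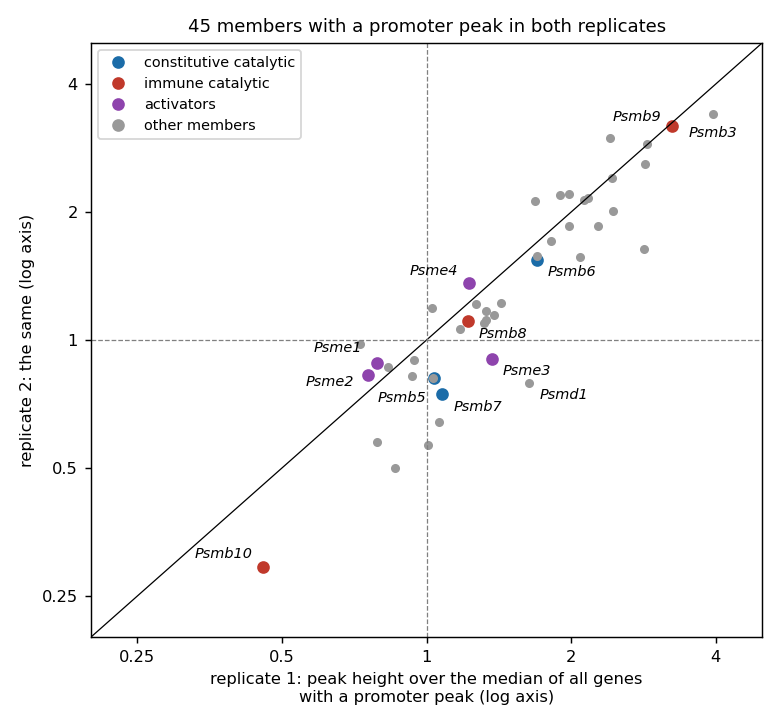
Promoter peak height of the 45 members with a peak in both replicates, each divided by its library's median over genes with a promoter peak (log axes), with catalytic and activator genes in colour and the diagonal marking equal values. Psmb9 lies near Psmb3 at the upper end, Psmb10 alone at the lower end, and Psmb5, Psmb6, Psmb7 and Psmb8 between them.

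The base of the regulatory particle, whose ATPases unfold the substrate, was open at all 6 genes, with medians of 6.45 in replicate 1 and 6.54 in replicate 2. Psmc5 was the highest at 12.2 and 10.5 (11.4 ± 1.19, SD, n = 2), with a peak shared with Ftsj3, a ribosome assembly gene whose nearest diverging start lies 75 bp away. Psmc1 had the lowest mean, at 4.33 and 2.31 (3.32 ± 1.43, SD, n = 2), although Psmc2 was lower in replicate 1 with 3.12. Psmc5 and Psmc1 differed by more than their spread.

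The 11 non-ATPase subunits had medians of 7.01 in replicate 1 and 4.76 in replicate 2. Psmd4, a receptor for ubiquitin chains, had the highest mean, at 12.4 and 11.8 (12.1 ± 0.410, SD, n = 2), although Psmd12, a scaffold subunit, was higher in replicate 2 with 12.1. Psmd14, the deubiquitinase that removes the chains, had the lowest mean, at 4.05 and 3.66 (3.86 ± 0.277, SD, n = 2). Psmd6, another scaffold subunit, lay beside it with 4.42 and 3.31, and the pair did not differ beyond their spread. In replicate 2 the lowest was Psmd1 with 3.23, which had 7.01 in replicate 1.

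Assembly chaperones were open in the same range as the subunits they help to place. Among chaperones of the base, Psmd5 had 8.51 in replicate 1 and 7.54 in replicate 2 (8.02 ± 0.686, SD, n = 2). Psmd9 was the lowest of that role, at 5.45 and 4.96 (5.204 ± 0.347, SD, n = 2). Among chaperones of the core, Psmg1 had 10.5 and 8.20 (9.35 ± 1.64, SD, n = 2). Psmg2, the partner with which Psmg1 forms a dimer, had 3.39 and 2.35 (2.87 ± 0.740, SD, n = 2), with a peak shared with Cep76. Psmg1 and Psmg2 differed by more than their spread between replicates.

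The activators stood at or slightly below the middle of open genes, with medians of 4.33 in replicate 1 and 3.64 in replicate 2. Psme1, which with Psme2 forms the interferon-inducible activator, had 3.39 and 3.59 (3.49 ± 0.144, SD, n = 2). Psme2 had 3.25 and 3.37 (3.31 ± 0.0788, SD, n = 2), but that peak lay upstream and within reach of a start of Rnf31, and the peak at its own first start had 1.70 and 1.55. Psme3, which encodes a nuclear activator, had 5.89 and 3.68 (4.78 ± 1.56, SD, n = 2). Psme4, an activator known from the testis and DNA repair, had 5.27 and 5.56 (5.41 ± 0.202, SD, n = 2). Psme1 and Psme2 were both higher in replicate 2, lay close together and stayed below both replicates of Psme4.

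A shared start region with a neighbouring gene was common among the members. Of the 46, 12 had a diverging start of another coding gene within 1 kb upstream, which is 26.1%, against 10.99% of all genes and 17.97% of genes with a promoter peak in both replicates. When peaks near starts of other genes were left out, 34 members had a promoter peak in both replicates, where 47.7% of all genes had one. The highest promoter peaks had a median width of 220 bp in either replicate over members with peaks in both, against 240 and 220 bp over all such genes. Members held a median of 9 promoter footprints in replicate 1 and 7 in replicate 2, against 10 and 8 for genes with a peak in both replicates. Bases at an FDR of the cut rate of at most 0.01 made up a median of 43.3% and 34.6% of the members' windows, against 44.0% and 31.9% for those genes.

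The promoter table of RefSeq matched 38 of the 46 members by symbol. Psma8, Psmb1, Psmb2, Psmb7, Psmc3, Psmd3, Psmd7 and Psmg2 were not matched. In the 300 bases from 250 before to 50 after the most upstream RefSeq start, GC content had a median of 58.2%, against 61.3% for genes in the table with a promoter peak in both replicates and 57.0% for all. The ratio of observed to expected CpG had a median of 0.749, against 0.773 and 0.5996. Footprints covered a median of 29.3% of these bases in replicate 1 and 24% in replicate 2, against 25.7% and 21% for the open genes. In base composition the members thus resembled open promoters in general. The 11 standard core subunits in the table had a median CpG ratio of 0.796, from 0.185 to 1.00, where the lowest was Psma6, whose most upstream RefSeq promoter held no footprint. The highest peak of Psma6 lay at a later annotated start, chr12:55398641-55398940 in replicate 1, so its ratio does not describe its open promoter. The 3 immune subunits with Psme1 and Psme2 had a median of 0.541, from 0.192 at Psmb10 to 0.5996 at Psmb9. For Psmb8, Psmb10 and Psme2, too, these 300 bases did not overlap the highest peak of the gene in either replicate.

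Consensus letters were searched on both strands of the same 300 bases, as a description of the sequence and not of bound factors. Of the searches, TGACNNNGC is the antioxidant response type, known to be bound by Nfe2l1 and Nfe2l2. It can share letters with TGACGTCA, the CREB and ATF type. The antioxidant response type was in 6 members, 15.8% of the 38, against 13.2% of all promoters and 14.7% of open ones, which is near the background. The 6 were Psmb5, Psmb6, Psmc6, Psmd9, Psmd12 and Psme4. In Psmb5 the match TGACGTCGC, in Psmb6 TGACGGAGC at the end of the sequence shown, in Psmc6 GCTAAGTCA and in Psmd9 TGACCCCGC lay at least partly in footprints of both replicates. In Psmd12 and Psme4 the match lay outside footprints.

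The widest gap to open promoters, in percentage points, was that of the ETS type. The letters CCGGAAG or their reverse complement were in 13 members, 34.2%, against 18.8% of open promoters and 12.3% of all. The 13 were Psmc1, Psmc2, Psmc6, Psmd2, Psmd4, Psmd6, Psmd11, Psmd12, Psmd13, Psme3, Psme4, Psmg1 and Psmg3. These encode parts of the regulatory particle, activators and core chaperones. No Psma or Psmb promoter in the table held the letters, that is, none of 11 standard core and 3 immune subunits. With so few promoters, and 18.8% as the share of open ones, a divide between the groups cannot be read from this, and it was not tested. Psmb1, Psmb2 and Psmb7 were not in the table, and Psma6, Psmb8 and Psmb10 were read away from their highest peaks. A match lay at least partly in a footprint at 10 of the 13 in replicate 1 and at 9 in replicate 2. Of all genes with the motif, 60.8% and 60.9% had a match in a footprint.

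The interferon response type, GAAANNGAA, was in 6 members, 15.8%, against 6.73% of open promoters and 8.34% of all. They were Psmb3, Psmb4, Psmd4, Psmd9, Psme1 and Psmg4, so that of the interferon-inducible members only Psme1 had it in this window, outside footprints. For Psmb8, Psmb10 and Psme2 this window lay away from their highest peaks, so the lack of a match does not describe those peaks. The STAT type, TTCNNNGAA, which can overlap the interferon response type, was in 3 members, Psmb8, Psmd2 and Psmg1, which is 7.89% against 6.67% and 7.87%. Its match lay outside footprints at Psmb8 and Psmg1, and partly in a footprint of both replicates at Psmd2. The GC box, GGGCGG, was in 60.5% of members, against 66.0% of open promoters and 48.0% of all. The NF-Y type, CCAAT, was in 34.2% of members, against 39.0% of open promoters and 38.8% of all. The TATA box, TATAAA, was in 10.5% of members, against 6.23% of open promoters and 12.8% of all. The nuclear respiratory factor 1 type, TGCGCATGC, was in 1 member, Psma2, with 3 matches, 2 of them overlapping, that lay at least partly in footprints of both replicates. That is 2.63% of members, against 3.25% of open promoters and 2.13% of all. The YY1 type, AAGATGGCG, was in Psmb6 and Psmc5, 5.26% of members against 3.21% of open promoters and 2.03% of all. The CREB and ATF type was in 0 members in this window, against 3.44% of open promoters and 2.41% of all, while the match of Psmb8 shown above lies in its peak at an earlier start outside that window.

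**Figure D4:**
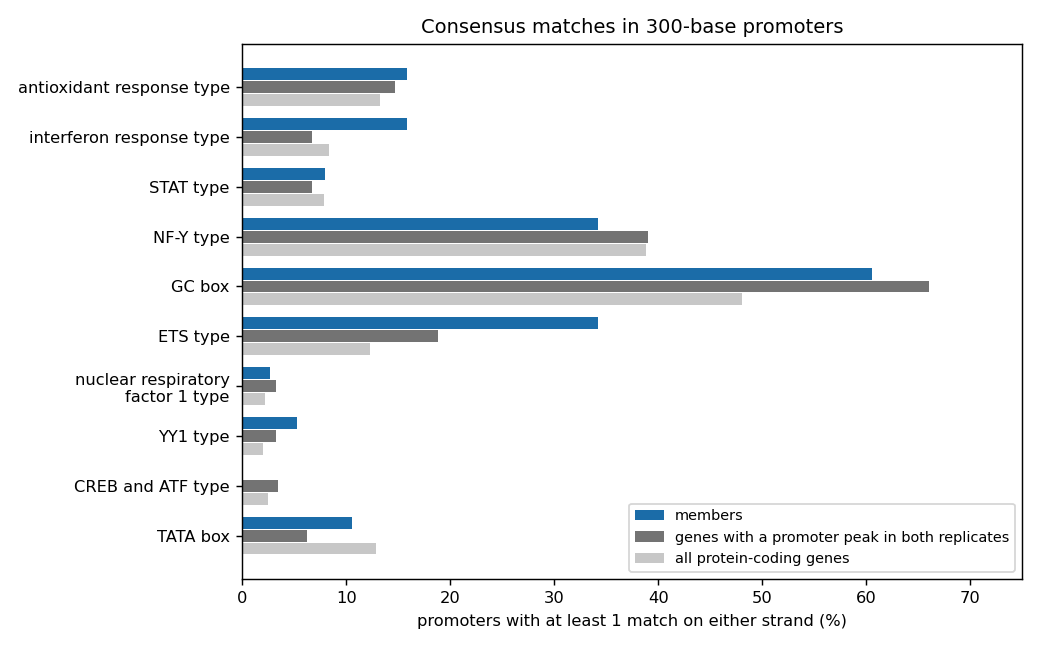
Share of promoters of 300 bases with at least 1 match to each consensus on either strand (percent, from 0), for the 38 members in the table (blue), genes with a promoter peak in both replicates (dark grey) and all protein-coding genes (light grey). The ETS type is in 34.2% of members and 18.8% of open promoters, while the antioxidant response type is at 15.8% and 14.7%.

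Other genes of the proteasome pathway were open in the same way. Of the 25 listed, 24 were annotated. All 24 had a promoter peak and a footprint in both replicates, against 57.2% and 55.9% of all protein-coding genes. Their median heights were 4.84 in replicate 1 and 4.26 in replicate 2. By mean height the highest were Rad23b, a shuttle for ubiquitin-tagged proteins, with 16.96 in replicate 1 and 15.2 in replicate 2, and Ubr4, a ubiquitin ligase, with 15.0 and 14.5. Ubb, a polyubiquitin gene, had 13.3 and 15.4, and Vcp, a segregase that extracts tagged proteins, had 14.1 and 13.6. Each of these 4 lay above every value of the members other than Psmb3 and Psmb9 in replicate 1. Nfe2l1, the factor behind the rebound of subunit genes, was also high, with 11.4 and 15.4, and its relative Nfe2l2 had 4.28 and 4.11.

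Of 25 genes of antigen processing and the interferon response, all had a promoter peak in replicate 1 and 23 in replicate 2. The shares of all protein-coding genes were 63.4% and 57.8%. By mean height the highest were Calr, an endoplasmic reticulum chaperone of MHC class I loading, with 14.7 and 18.5, and Ifngr1, a chain of the interferon gamma receptor, with 15.6 and 15.7. Tap1 had 14.0 and 12.96 through the peak it shares with Psmb9, and Canx, another chaperone, had 13.8 and 12.6. The interferon-induced genes Ifit1 and Mx1 had 0.533 and 0.394 in replicate 1 and no promoter peak in replicate 2. The immune proteasome subunits, open in both replicates, thus fell between these extremes, with Psmb9 among the highest and Psmb10 nearer the lower end.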

How the data were processed

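Peaks, footprints and cut-rate lists of 2 DNase-seq libraries of thymus were used as deposited, on mm10, per each sample's README. The deposited signal is the height of each peak, scaled by the authors, and how is not stated. The footprint lists carry the constant 0.01, read as the authors' FDR threshold. A further deposited list holds an FDR, a kind of q-value or p-value, for bases where it is under 0.05. Aligner, callers, read numbers and any correction for the sequence preference of DNase I or for reads of CAST/EiJ chromosomes are not given in the sources used. The larger peak file of each library was used. Windows reached 500 bp to either side of every GENCODE M21 start, overlap was counted from 1 bp, and a peak within reach of several genes was counted for each. Coordinates are 1-based. Promoters came from the RefSeq table on GRCm38.p6, taking the most upstream row of a gene. Distal peaks lay over 1 kb from any coding start and were assigned to the nearest within 100 kb. Counting was tested on simulated intervals. Scripts ran in Python 3.11.15 with numpy 2.4.6.

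The design has 1 group of 2 replicates and no control, so no test was run, values are given per replicate with mean ± SD, and genes are not replicates. The SD measures only the spread between these samples, which may be technical. The members, roles, gene lists and motifs were chosen with earlier results of these data known. Members named with values were the catalytic subunits, the activators, Psma8, the highest and lowest of each role and those without a peak or footprint. From the other lists, the 4 highest and those without a peak were named, and Nfe2l1 and Nfe2l2 were added for their role. Alternatives changed the window, starts, peak file, peak numbers, shared peaks, heights and footprints used.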

Additional observations from a re-analysis of the deposited data

How the results depend on the processing

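The count of 45 members with a promoter peak in both replicates, and that with a footprint, kept within 1.5 times under every alternative that could be run. Both counts were 43 when only the most upstream start was used, and no share of all genes is given for that setting. With peaks near starts of other genes left out, 34 members had a promoter peak, where 47.7% of all genes had one. With either replicate left out, the counts were 45 to 46. The median height of members over that of all genes (1.27) became 1.55 without peaks near starts of other genes and ran from 1.19 to 1.35 when either replicate was left out. The log2 ratio of constitutive over immune catalytic subunits (-0.47) became 1.17 without those shared peaks and 0.31 with the wider gene groups, and -0.79 for summed heights, and it ran from -0.56 to -0.37 when either replicate was left out. The difference in footprints per kb (0.944) was 3.81 with a window of 250 bp, -0.39 with 1000 bp, -0.22 for footprints in peaks, and -0.039 with starts of basic coding transcripts alone, an alternative chosen after seeing the data. It was -0.30 without replicate 1 and 2.19 without replicate 2. With the wider gene groups it was 1.62. Without peaks near starts of other genes, Psmb9 enters as 0 by construction. The cause of the other changes was not tested. No paired analysis was possible because the design has 1 group. Replicate 2 listed 69798 peaks against 132737 in replicate 1, and whether that bears on weak sites such as Psma8 was not tested.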

Other observations

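Distal open chromatin near the members was counted too, and the genes named for it were chosen after their values were seen. Peaks over 1 kb from any coding start and nearest to a member within 100 kb numbered 3.37 per member in replicate 1 and 2.26 in replicate 2 on average, with medians of 1 and 0, against means of 3.84 and 1.72 and medians of 2 and 1 over all coding genes. In replicate 1, 18 members (39.1%) had no such peak, against 31.6% of all genes, and in replicate 2, 24 (52.2%) had none, against 49.7%. Psmg1 had 37 in replicate 1 and 40 in replicate 2, of which 24 of replicate 1 were overlapped in replicate 2. Psma6, an outer ring subunit, had 21 and 15, and Psma1, another, had 14 and 5. Assignment to the nearest start does not show that a peak acts on that gene.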
